A study of Homo sapiens with 27 samples.

Results

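MicroRNA (miRNA) signals were compared between OCI-AML3 cells treated with SDF-1α for 8 h and the same cells treated for 2 h. OCI-AML3 is a cell line from an acute myeloid leukaemia. The comparison took the 3 arrays titled as SDF-1α at 8 h and the 3 titled as SDF-1α at 2 h, 6 of 27 arrays in all, and every human miRNA probe on them, 774 of 784 probes. Both groups received 100 ng/mL SDF-1α, so their labels differ in the hours of treatment alone. The series also holds arrays at 1 and 4 h, untreated control cells at 0 h, and cells given 250 nM POL6326, a CXCR4 antagonist, at 1, 2, 4 and 8 h, with 3 arrays for each of the 9 groups. The untreated cells were taken at 0 h alone, so hours of SDF-1α and hours in culture cannot be told apart in the change from 2 h to 8 h. Separate cultures for the arrays of a group are not stated, so p-values here measure the spread between arrays, which may be technical. The cells are 1 line, and their RNA was extracted in bulk, so less RNA per cell cannot be told apart from fewer cells that carry a miRNA.

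SDF-1α, also called CXCL12, is the ligand of the chemokine receptor CXCR4, which holds leukaemia cells in the bone marrow niche and signals through G proteins and kinase cascades. A miRNA is cut from a hairpin precursor into a short mature strand, and the less abundant strand of the hairpin carries an asterisk in the older names used on these arrays. The mature strand pairs with messenger RNAs mainly through its seed, bases 2 to 8, and lowers their translation or stability, so miRNAs with the same seed share many targets. Mature miRNAs are often stable for many hours, and a change in their level can follow a change in their transcription, processing or decay. The labelling primer had a random end, so a probe for a mature strand may also read its precursor.

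Between 2 h and 8 h of SDF-1α, 16 of 774 probes passed an adjusted p of 0.05 by limma's moderated test, which is 2.07% of the probes tested. Of these, 5 rose (0.646%) and 11 fell (1.42%). The probes that rose were miR-551a, miR-543, miR-652, miR-212 and the mir-212 precursor. The probes that fell were miR-196b, miR-140-3p, let-7d, miR-548d-3p, miR-20a, miR-26b, miR-107, miR-191, miR-138-1* and the precursors mir-658 and mir-431. On all 16 the 3 arrays of one time lay apart from the 3 of the other; over all probes this held for 33 with 8 h above (4.26%) and 58 with 8 h below (7.49%). An unadjusted p under 0.05 was reached by 111 probes, 35 higher and 76 lower at 8 h. Fitting the 6 arrays alone, without the spread of the other groups, gave 2 calls, miR-196b and, from outside the 16, miR-138 (adjusted p = 0.00486 for each). The other 15 of the 16 calls were lost in that fit, so they rest on a spread pooled over more groups. With the 12 SDF-1α arrays alone, the calls of let-7d, miR-191, miR-138-1*, miR-543 and miR-212 were lost. So were those of the mir-212, mir-658 and mir-431 precursors (adjusted p = 0.0599 to 0.146 over these probes). With 3 arrays against 3, the smallest p of an exact two-sided permutation test is 0.1.

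Sequences of most mature probes that changed are shown beside those of some seed relatives on the array, because relatives with the same seed did not all pass. They are RefSeq mature sequences on GRCh38.p14, read 5′ to 3′, with the seed in capitals; of 13 mature probes past the threshold, 12 matched one. miR-20a lies at chr13:91351072-91351094 on the plus strand within MIR17HG, the transcript of the miR-17 cluster, with miR-17 upstream of it at chr13:91350618-91350640. From miR-20a to miR-17 the differences are U1C and U12C, counted from 1 at the 5′ end.
miR-20a: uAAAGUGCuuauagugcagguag
miR-17: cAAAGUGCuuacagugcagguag
miR-93: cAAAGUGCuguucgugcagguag
miR-106a: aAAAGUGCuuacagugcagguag

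miR-551a lies on the minus strand at chr1:3560710-3560730 within MEGF6, and miR-551b at chr3:168551914-168551934 on the plus strand. They share a seed and differ outside it by C9U, U10A, C20A and A21G.
miR-551a: gCGACCCAcucuugguuucca
miR-551b: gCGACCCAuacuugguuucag

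miR-196b, on the minus strand at chr7:27169528-27169549 in the HOXA cluster, differs from miR-196a by C12A.
miR-196b: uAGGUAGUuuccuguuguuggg
miR-196a: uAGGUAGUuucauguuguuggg

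miR-107, on the minus strand at chr10:89592756-89592778 within the pantothenate kinase gene PANK1, differs from miR-103 by C22G, a base near the 3′ end.
miR-107: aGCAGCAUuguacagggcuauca
miR-103: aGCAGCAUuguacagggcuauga

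let-7d, on the plus strand at chr9:94178841-94178862 in the same host transcript as a copy of let-7a, differs from let-7a by A1U and C16U.
let-7d: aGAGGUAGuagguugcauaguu
let-7a: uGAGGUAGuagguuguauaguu

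miR-26b lies at chr2:218402657-218402677 on the plus strand within CTDSP1, a gene for a small phosphatase, and shares its seed with miR-26a.
miR-26b: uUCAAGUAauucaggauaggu
miR-26a: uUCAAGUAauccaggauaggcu

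miR-212, on the minus strand at chr17:2050290-2050310, shares its seed with miR-132 of the same cluster. Its hairpin, chr17:2050271-2050380 on the minus strand, is shown because the precursor probe moved with the mature one; the capitals in the hairpin mark the mature strand, bases 71 to 91.
miR-212: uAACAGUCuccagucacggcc
miR-132: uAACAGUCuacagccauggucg
mir-212 hairpin: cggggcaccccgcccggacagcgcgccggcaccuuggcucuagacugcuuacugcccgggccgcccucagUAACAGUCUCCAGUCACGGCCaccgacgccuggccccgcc

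The other mature probes past the threshold had no seed relative shown here, and the matched sequences of miR-652 and miR-138-1* are not printed. miR-140-3p lies at chr16:69933142-69933162 within WWP2, miR-191 at chr3:49020672-49020694 on the minus strand within DALRD3, and miR-543 at chr14:101032033-101032054 in the imprinted DLK1-DIO3 region.
miR-140-3p: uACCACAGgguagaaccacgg
miR-191: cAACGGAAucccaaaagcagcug
miR-543: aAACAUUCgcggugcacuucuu

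The values are log2 signals as deposited, and on each array most of the faintest probes share 1 tied value, its floor. A few values lay under it, 4 to 9 on each of these 6 arrays. They entered the means and fits as deposited and are counted here as at the floor. The floors of the 6 arrays lay between 4.27 and 4.34. The detection limit of an array is its smallest value over that floor. At 2 h 327, 317 and 332 probes were above the floor, and at 8 h 489, 366 and 317 were. The 8 h array 1 thus stood apart, with a detection limit of 4.37 against 4.82 and 5.22 on the other 8 h arrays and 5.12 to 5.44 at 2 h. Without it the count was 14 probes, of which 9 were among the 16; without the 8 h array 3 it was 32, and the 16 were all among them. Over the 6 arrays 242 probes were above the floor throughout, 236 were at the floor throughout, and 296 were mixed. Of the 16 probes past the threshold 13 were above the floor on all 6 arrays, which is 5.37% of the 242. The myeloid marker miR-223 was among the brightest probes, with a mean log2 signal of 15.12 at 2 h against 14.72 at 8 h. Of 3 myeloid probes 2 were above the floor throughout, miR-223 and miR-142-5p, while miR-142-3p was at the floor on some arrays. Of 3 pan-haematopoietic probes (miR-155, miR-150 and miR-181a) 2 were above it throughout. miR-181a was at the floor on all 8 h arrays and above it on 1 of 3 at 2 h. Of the markers of other cell types, 1 of 4 erythroid probes (miR-144), 1 of 7 epithelial (miR-200c), 1 of 6 muscle (miR-133a) and 3 of 8 stromal and endothelial probes (miR-143, miR-199a-5p and the plain miR-126 probe) were at the floor on all 6 arrays. The Plus/Minus probes of miR-126 and miR-133a, a mark the sources used here do not explain, were above it on 1 and 3 of the 6. Others were above the floor throughout, among them miR-486-5p (Plus/Minus), miR-429, miR-205, miR-206, miR-133b, miR-145, miR-214, the liver miR-122 and the neural miR-137 and miR-9. The plain miR-486-5p probe and the Plus/Minus probe of miR-214 were at the floor on all 2 h arrays and above it on 1 of 3 at 8 h. On the log2 scale the summed signal of the erythroid list was 6.98 to 8.09 at 2 h against 6.62 to 7.12 at 8 h, that of the epithelial list 9.85 to 10.15 against 9.55 to 10.27, that of the muscle list 8.71 to 9.22 against 8.71 to 9.15, and that of the stromal and endothelial list 9.85 to 10.05 against 9.55 to 10.12. No probe of the 8 marker lists passed the threshold.

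Over the 774 probes the median log2 difference, 8 h minus 2 h, was -0.03. Among the 242 probes above the floor throughout it was -0.22, with 152 probes lower and 90 higher at 8 h and an interquartile range of -0.72 to 0.19. Centring the arrays removed a shift of -0.08, and the count became 19, with 7 rises and 12 falls. Quantile normalization gave 13 probes, 7 higher and 6 lower, where the deposited values gave 5 higher and 11 lower. The excess of falls thus remained with centring and was absent with quantile normalization.

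**Figure D1:**
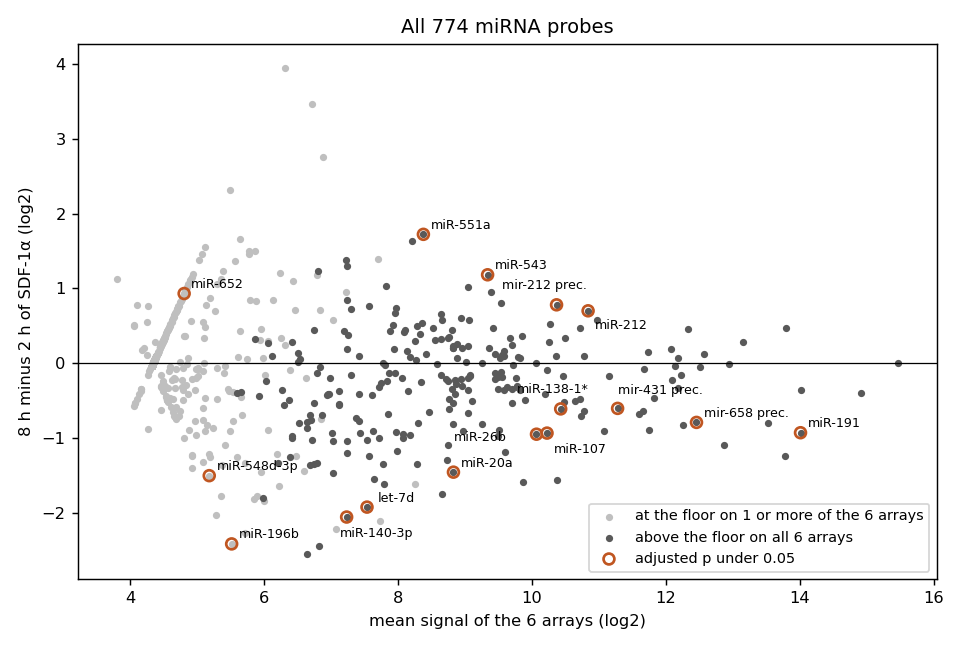
Log2 difference, 8 h minus 2 h of SDF-1α, against the mean log2 signal of the 6 arrays for the 774 miRNA probes; dark points are the 242 probes above the floor on all 6 arrays, and rings mark the 16 probes past an adjusted p of 0.05. The ringed probes lie between -2.41 (miR-196b) and 1.72 (miR-551a), and 3 of them are among the pale probes that were at the floor on 1 or more arrays.

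miR-20a belongs to the miR-17 cluster, which is known to favour cell-cycle entry and survival in blood cells. It read 9.31, 9.83 and 9.52 on the 2 h arrays and 7.81, 8.47 and 8.02 on the 8 h arrays. All 8 h arrays lay below all 2 h arrays. The signal was 2.74-fold lower at 8 h (log2 -1.45, SE 0.22, adjusted p = 0.000657), and in 17 of 18 other settings it stayed past the threshold. miR-17, its neighbour in the same transcript, read 8.999, 9.77 and 8.88 at 2 h and 8.61, 8.64 and 7.98 at 8 h, also without overlap, but did not pass (log2 -0.80, SE 0.24, adjusted p = 0.0902). Of the 6 probes of the miR-17 cluster and its paralogue clusters with this seed, all 6 had negative differences and 1 passed. The others were miR-20b (-1.61, with 1 of the 8 h arrays at the floor), miR-106a (-0.94), miR-93 (-0.41) and miR-106b (-0.23), with adjusted p of 0.409, 0.215, 0.432 and 0.677. Probes outside these clusters were not searched for this seed, so the shared sign holds for these clusters alone. miR-92a, of the same transcript but with another seed, had a positive difference (0.47, SE 0.35, adjusted p = 0.616). Of 27 probes of the miR-17 cluster and its paralogue clusters 1 passed, miR-20a, beside 2.07% of all probes, and the median difference was -0.03, as over all probes; the 13 probes above the floor throughout had a median of -0.41 and 9 negative values, beside -0.22 and 152 of 242 in all.

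miR-107, which has targets in metabolism and the cell cycle, read 10.42, 10.96 and 10.69 at 2 h and 9.71, 9.96 and 9.61 at 8 h. The 2 times did not overlap, and the signal was 1.91-fold lower at 8 h (log2 -0.93, SE 0.19, adjusted p = 0.00930). Without the 2 h array 2 the call was lost (-0.80, adjusted p = 0.0636). miR-103, which differs by the single base given above, read 9.40, 9.99 and 9.58 at 2 h and 8.88, 9.48 and 8.18 at 8 h. Its difference was of similar size (-0.81) but had a larger SE (0.78, adjusted p = 0.677), and its arrays overlapped. The mir-107 precursor probe was at the floor on all 2 h arrays and above it on 1 of 3 at 8 h.

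miR-26b, a miRNA known for restraining growth through cell-cycle targets, read 10.82, 10.57 and 10.23 at 2 h and 9.56, 9.47 and 9.75 at 8 h. All 8 h arrays were lower, by 1.93-fold (log2 -0.95, SE 0.19, adjusted p = 0.00930), and the call was lost without the 2 h array 1 (-0.80, adjusted p = 0.0574). miR-26a, with the same seed, was scattered at both times (4.34 at the floor, 7.69 and 8.20 at 2 h; 8.07, 7.39 and 6.50 at 8 h), and its difference of 0.58 had an SE of 1.26 (adjusted p = 0.914). Of 5 probes of the miR-26 family 1 passed, beside 2.07% of all probes, and the family's median difference was -0.56, beside -0.03 over all probes.

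let-7d belongs to the let-7 family, which represses growth genes such as RAS and HMGA2. The 2 h arrays read 8.42, 8.49 and 8.58, and the 8 h arrays read 5.90, 6.02 and 7.81. The 8 h arrays were lower and spread more widely, with array 3 nearest to the 2 h values. The signal was 3.78-fold lower at 8 h (log2 -1.92, SE 0.45, adjusted p = 0.0235). The call was lost when any of the 3 arrays at 2 h, or array 1 or 2 at 8 h, was left out (adjusted p = 0.0592 to 0.117). It was also lost with quantile normalization (-1.84, adjusted p = 0.0648) and with a covariate for how many probes were above the floor (-1.74, adjusted p = 0.0501). let-7a, the miRNA named in the title of the series, read 6.75, 8.10 and 6.40 at 2 h and 7.49, 4.32 and 5.75 at 8 h, where array 2 was at the floor. Its arrays overlapped, and its difference of -1.23 (SE 0.80, adjusted p = 0.535) was within the spread. Of the 17 let-7 family probes let-7d alone passed, beside 2.07% of all probes, and the median was -0.18, beside -0.03. Among the 9 family probes above the floor throughout 7 were negative, beside 152 of 242 such probes in all; they included let-7i (-0.65, adjusted p = 0.161), and let-7e had the highest value (0.30, adjusted p = 0.467).

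miR-196b is encoded between HOXA9 and HOXA10 and is a known marker of leukaemias with high HOX gene expression. It read 6.54, 6.96 and 6.65 on the 2 h arrays and was at the floor on all 8 h arrays. It was the 1 probe of 774 that was above the floor on every 2 h array and at the floor on every 8 h array. Against the 8 h detection limits, whose mean was 4.80, miR-196b was at least 3.78-fold lower at 8 h (fitted log2 -2.41, SE 0.32, adjusted p = 0.000148), and it passed in all 16 other settings that could be fitted to it. It was also at the floor on the control and 1 h arrays, and above it on 1 of 3 arrays at 4 h. The 1 h detection limits were 7.19, 6.88 and 7.42, and their mean of 7.16 lay above the 2 h values. Of the 2 h values only 6.96 was over a 1 h limit, that of array 2. A signal of the 2 h size could thus have been missed at 1 h. The mir-196b precursor probe read 9.74 ± 0.08 (SD, n = 3) at 2 h and 9.83 ± 0.13 (SD, n = 3) at 8 h, a difference of 0.09 (adjusted p = 0.778). miR-196a read 7.08, 7.21 and 7.64 at 2 h and 6.14, 7.12 and 4.34 at 8 h, the last at the floor, and did not pass (-1.44, SE 0.78, adjusted p = 0.431). Of 9 HOX-embedded probes miR-196b was the 1 that passed, beside 2.07% of all probes, and the list's median was -0.31, beside -0.03 over all probes. miR-10b*, from the HOXD cluster, read 8.50, 8.12 and 7.47 at 2 h and 4.93, 6.27 and 5.58 at 8 h, without overlap, but did not pass (-2.44, SE 0.85, adjusted p = 0.155).

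miR-140-3p, known from cartilage and processed from an intron of WWP2, read 8.65, 8.20 and 7.92 at 2 h and 6.15, 7.04 and 5.43 at 8 h. The 8 h arrays were all lower, by 4.15-fold (log2 -2.05, SE 0.42, adjusted p = 0.00930). miR-140-5p, the other strand of the hairpin, was at the floor on all 6 arrays. miR-191, one of the brightest probes and a miRNA abundant in many blood cells, read 14.65, 14.39 and 14.39 at 2 h and 12.99, 13.64 and 14.01 at 8 h. It was 1.90-fold lower at 8 h (log2 -0.93, SE 0.22, adjusted p = 0.0235), with the 8 h array 1 the lowest. That call was lost without any of the 2 h arrays and without the 8 h array 1 (adjusted p = 0.0624 to 0.121), and with quantile normalization (-0.65, adjusted p = 0.186). miR-548d-3p, a primate miRNA, was faint, reading 5.29, 6.38 and 6.12 at 2 h and 4.63 on the 8 h array 1, and it was at the floor on the other two arrays at 8 h. Its fitted difference of -1.50 (SE 0.29, adjusted p = 0.00697) therefore depends on where the floor lies.

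The remaining falls were smaller, and their arrays lay close together. miR-138-1* is by its name the minor strand of the mir-138-1 hairpin. It read 10.69, 10.68 and 10.82 at 2 h and 9.94, 10.11 and 10.32 at 8 h, a 1.52-fold fall (log2 -0.61, SE 0.11, adjusted p = 0.00553). A second probe of the same name, marked Plus/Minus in the deposited table, differed by -0.03 (SE 0.17, adjusted p = 0.975). The mir-658 precursor read 12.81, 12.76 and 12.99 at 2 h and 12.06, 11.86 and 12.27 at 8 h, a 1.73-fold fall (log2 -0.79, SE 0.14, adjusted p = 0.00553). The mir-431 precursor of the DLK1-DIO3 cluster fell 1.52-fold (log2 -0.60, SE 0.13, adjusted p = 0.0107) from 11.60, 11.75 and 11.38 to 10.77, 10.98 and 11.19. None of these 3 overlapped between the times, and none passed with quantile normalization (adjusted p of 0.0753 for miR-138-1*, 0.149 for mir-658 and 0.431 for mir-431). The mir-431 call was also lost without the 2 h array 2 (adjusted p = 0.0765) and without the 8 h array 1 (0.0736). miR-431 and miR-431*, the mature strands of that precursor, were at the floor on all 6 arrays.

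**Figure D2:**
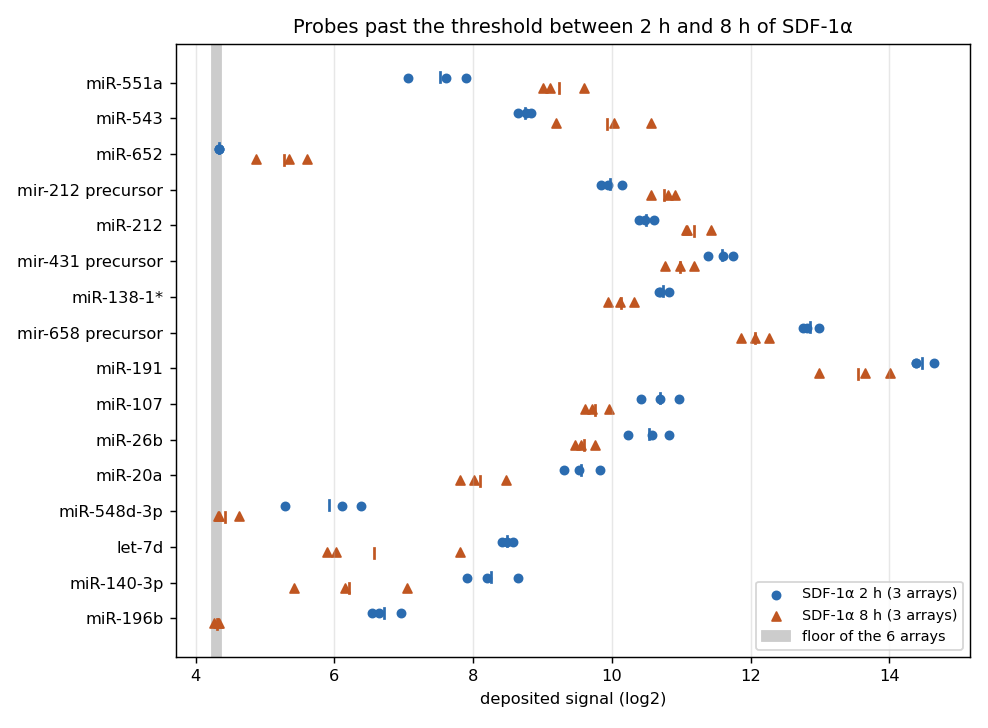
Deposited log2 signal of the 16 probes past the threshold on each array; circles are the 3 arrays at 2 h, triangles the 3 at 8 h, short bars the group means and the grey band the floors of the 6 arrays. The 2 times are apart for every probe, the 8 h values of miR-196b and the 2 h values of miR-652 lie in the floor band, and let-7d has 8 h values from 5.90 to 7.81.

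miR-551a had the largest rise among the probes past the threshold. It read 7.06, 7.60 and 7.89 at 2 h and 9.60, 9.11 and 9.01 at 8 h. All 8 h arrays lay above all 2 h arrays, and the signal was 3.30-fold higher at 8 h (log2 1.72, SE 0.36, adjusted p = 0.0106). The call was lost without the 2 h array 1 (1.49, adjusted p = 0.0592) and without the 8 h array 1 (1.54, adjusted p = 0.0625). miR-551b, the other miRNA with this seed, was at the floor on 2 of 3 arrays at 2 h and at 6.26 on the third, and read 8.58, 8.30 and 8.46 at 8 h. It lay higher at 8 h without overlap but did not pass (fitted log2 3.47, SE 0.91, adjusted p = 0.0537). The mir-551a precursor was at the floor on all 6 arrays.

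miR-212 is transcribed with miR-132 and is a known target of the cyclic AMP responsive factor CREB. The mature probe read 10.60, 10.47 and 10.39 at 2 h and 11.43, 11.06 and 11.08 at 8 h. Its precursor read 9.85, 10.14 and 9.94 at 2 h and 10.80, 10.91 and 10.56 at 8 h. Both rose without overlap, the mature strand 1.63-fold (log2 0.70, SE 0.18, adjusted p = 0.0420) and the precursor 1.72-fold (log2 0.78, SE 0.18, adjusted p = 0.0175). The 2 probes may share RNA, since the precursor holds the mature sequence, so they are not 2 independent results. Leaving out 1 array ended the mature call in 4 cases (any 2 h array or the 8 h array 1, adjusted p = 0.0592 to 0.139) and the precursor call in 4 (the 2 h arrays 1 and 3 and the 8 h arrays 1 and 2, adjusted p = 0.0642 to 0.0825). The mature call was also lost without probes at the floor on most arrays (adjusted p = 0.0652) and with the covariate for how many probes were above the floor (0.64, adjusted p = 0.0744). miR-132 was at the floor on the 2 h arrays and above it on 1 of 3 at 8 h (4.64). Of 17 probes in the inflammatory list, these 2 rose, beside 0.646% of all probes, and the list's median was -0.03, as over all probes. miR-155, an inflammatory miRNA that is high in many leukaemias, read 11.84, 11.41 and 11.36 at 2 h and 10.87, 10.54 and 10.48 at 8 h, without overlap, and did not pass (-0.90, SE 0.30, adjusted p = 0.140).

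miR-543 read 8.83, 8.65 and 8.76 at 2 h and 10.56, 10.03 and 9.20 at 8 h. The 8 h arrays were higher and spread over more than 1 log2 unit, and the rise was 2.27-fold (log2 1.18, SE 0.25, adjusted p = 0.0107). It was lost without the 2 h array 2 (1.14, adjusted p = 0.0582) and without the 8 h array 1 (0.87, adjusted p = 0.0736). miR-543 and the mir-431 precursor were the 2 of 81 probes of the DLK1-DIO3 cluster past the threshold, in opposite directions, a share near the 2.07% of all probes. The cluster's median was -0.03, as over all probes, 27 of its probes were at the floor on all 6 arrays, and of the 21 above it throughout 14 had positive values, beside 90 of 242 in all.

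miR-652 was at the floor on all 2 h arrays and read 4.87, 5.61 and 5.34 at 8 h. Its mean at 8 h, 5.27, was just above the mean detection limit at 2 h, 5.23, so the rise was at least 1.03-fold, although the fitted change was 0.93 (SE 0.12, adjusted p = 0.000148). Without the 8 h array 2 the mean was under that limit and no fold could be given. With every array in the fit held to 1 common limit of 5.44, the highest of the 6 arrays, the call was lost (0.06, adjusted p = 0.650). miR-652 was also at the floor on every array at 1 h and 4 h, and tied floor values vary little, so its SE can be too small.

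Altogether 8 probes were at the floor on every 2 h array and above it on every 8 h array. miR-138, the strand named without an asterisk, comes from the mir-138-1 and mir-138-2 hairpins. It read 8.71, 7.96 and 8.16 at 8 h and was at least 8.25-fold higher than at 2 h. Within other groups it was scattered, at 9.53 on 1 control array and 8.79 on 1 array at 4 h, and at the floor on the other arrays of both. It did not pass with all groups in the fit (fitted log2 3.94, SE 1.07, adjusted p = 0.0672), although it did when the 6 arrays were fitted alone. The mir-646 precursor read 8.28, 6.03 and 5.64 at 8 h, with array 1 far above the others. It was at least 2.67-fold higher than at 2 h (adjusted p = 0.0973), and at least 1.52-fold without the 8 h array 1. miR-105* was at least 1.40-fold higher (adjusted p = 0.298), and the mir-376b precursor at least 1.16-fold (adjusted p = 0.561), a bound that was lost without the 8 h array 3. For miR-182, miR-324-3p and miR-633 the 8 h means (5.06, 5.06 and 4.98) were under the mean 2 h detection limit, so no fold is given.

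Among probes above the floor throughout, the other rises with the smallest p were miR-556-3p (0.95, adjusted p = 0.186), miR-346 (0.48, adjusted p = 0.198), miR-429 (0.45, adjusted p = 0.258) and a Plus/Minus probe of miR-24 (1.37, adjusted p = 0.258). None passed. All 4 lay higher at 8 h without overlap, as did 33 of all 774 probes (4.26%). They were picked for a small p, which favours such separation. The plain miR-24 probe differed by -0.97 (adjusted p = 0.161), so the 2 probes of this miRNA had opposite signs.

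The other miRNA families listed had no member past the threshold: miR-15 and miR-16 (13 probes), miR-29 (7), miR-30 (11), miR-34 (8), miR-181 (9), miR-125 and miR-99/100 (10), miR-23, miR-24 and miR-27 (10), miR-221 and miR-222 (3), miR-130, miR-301 and miR-454 (9) and the primate cluster C19MC (45). Their medians ran from -0.82 for miR-221 and miR-222 to 0.31 for miR-29, beside -0.03 over all probes. In the miR-15 and miR-16 family, whose members repress BCL2 and cyclins, miR-195 read 7.66, 8.19 and 7.90 at 2 h and 4.62, 4.90 and 6.57 at 8 h. miR-16 read 8.58, 8.55 and 8.57 at 2 h and 6.07, 7.95 and 8.17 at 8 h. Neither overlapped, and neither passed (miR-195 -2.55, SE 0.81, adjusted p = 0.123; miR-16 -1.17, SE 0.39, adjusted p = 0.140). All 4 probes of the miR-130, miR-301 and miR-454 list above the floor throughout were negative, with a median of -1.16 (beside -0.22 over the 242) and miR-130b at -1.08 (adjusted p = 0.136). Of the C19MC probes 30 of 45 were at the floor on all 6 arrays.

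**Figure D3:**
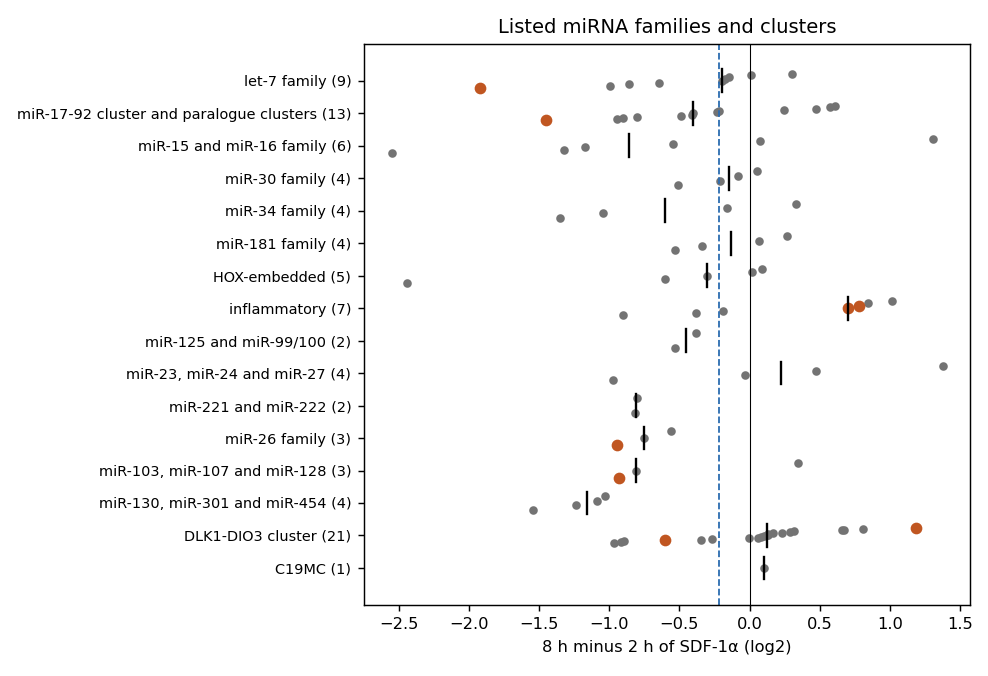
Log2 difference, 8 h minus 2 h of SDF-1α, for members of the listed families and clusters that were above the floor on all 6 arrays (their number in brackets); orange points passed an adjusted p of 0.05, black bars are the medians of the points shown, and the dashed blue line is the median of the 242 probes above the floor throughout, -0.22. The orange points are miR-20a, let-7d, miR-26b and miR-107, both directions in DLK1-DIO3, and the miR-212 pair in the inflammatory list; the miR-29 family had no member above the floor throughout and is absent.

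The 4 h arrays divide the change into an earlier and a later step. For 13 of the 16 probes the 4 h mean lay between the 2 h and the 8 h mean. For miR-548d-3p it lay beyond the 8 h mean, but no 4 h array was above the floor and 1 was under it (3.51). That place and the size of its step from 2 h to 4 h thus depend on the floor. For miR-652, at the floor at both 2 h and 4 h, and for miR-212 (10.487 at 2 h, 10.486 at 4 h) the 4 h mean lay just past the 2 h mean. From 2 h to 4 h 3 of 774 probes passed (0.388%), among them miR-196b (log2 -1.96, adjusted p = 0.00169) and miR-548d-3p (-1.88, adjusted p = 0.00127). From 4 h to 8 h 10 of 774 passed (1.29%), and 5 of these were among the 16. They were miR-652 (0.96, adjusted p = 0.000112), miR-107 (-0.90, adjusted p = 0.0233), miR-26b (-0.85, adjusted p = 0.0316), miR-140-3p (-1.84, adjusted p = 0.0316) and miR-20a (-0.90, adjusted p = 0.0491). These steps share arrays with the change from 2 h to 8 h and are its parts, not further evidence for it.

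In the order control, 1 h, 2 h, 4 h and 8 h, the mean of miR-107 was 10.84, 10.64, 10.69, 10.66 and 9.76. That of miR-140-3p was 8.27, 8.43, 8.26, 8.05 and 6.21. For these 2 miRNAs the 8 h mean was the low one. miR-551a had its lowest mean at 2 h (8.62, 7.84, 7.52, 8.55 and 9.24), and so did the mir-212 precursor (10.58, 10.11, 9.98, 10.29 and 10.76). Over the 16 probes the control mean was nearer to the 8 h mean for 10 and nearer to the 2 h mean for the others, a description with no test.

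**Figure D4:**
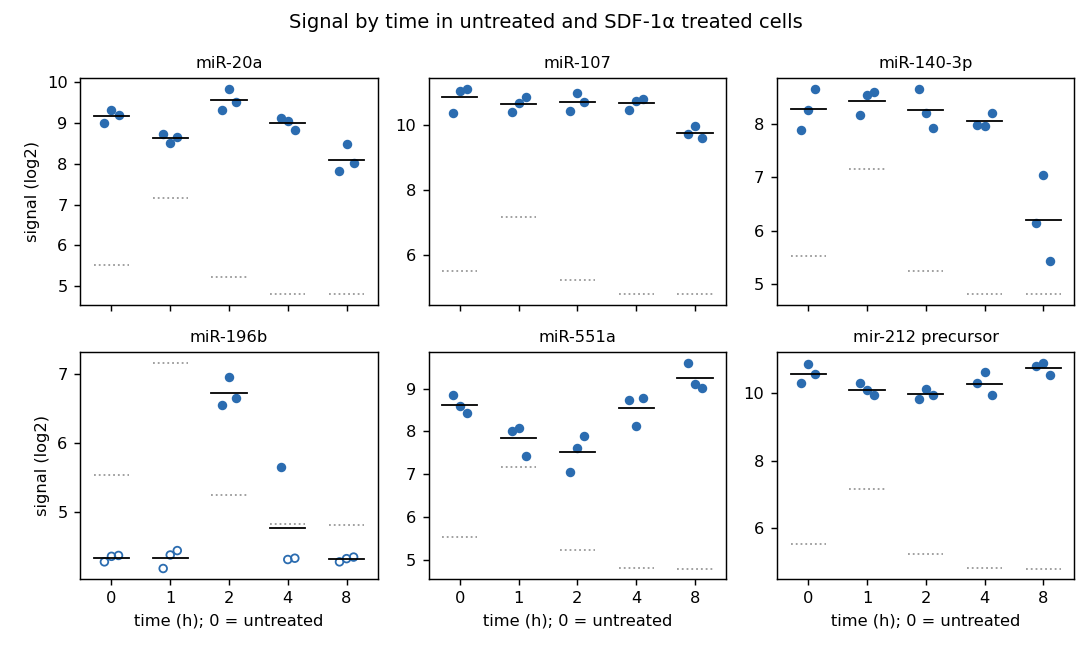
Log2 signal against hours of SDF-1α (0 is untreated control) for 6 of the probes past the threshold, with 3 arrays at each time; filled points are above the floor, open points at it, black bars are group means and dotted grey bars the group means of the detection limit. miR-107 and miR-140-3p are low at 8 h, and miR-551a is lowest at 2 h. miR-196b is above the floor on all 3 arrays at 2 h alone, with the mean 1 h detection limit above its 2 h values.

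POL6326 blocks CXCR4, and its 2 h and 8 h arrays share no array with the SDF-1α groups. From 2 h to 8 h of POL6326 33 of 774 probes passed (4.26%), and 4 of the 16 SDF-1α probes were among them, each in the same direction. These were miR-551a (log2 1.48, adjusted p = 0.0246), miR-543 (1.16, adjusted p = 0.00933), the mir-212 precursor (1.16, adjusted p = 0.000808) and miR-191 (-0.83, adjusted p = 0.0408). All 13 of the 16 that were above the floor on the 12 arrays of both treatments had the same sign under both; over all 226 such probes 147 did (65.0%). The change from 2 h to 8 h differed between the treatments for 12 of 774 probes (1.55%), and 2 of the 16 were among these, miR-196b and miR-652. miR-196b was at the floor on all POL6326 2 h arrays and on 2 of 3 at 8 h, where its mean was 4.72. miR-652 was at the floor on all 6 of these POL6326 arrays, so its difference rests on the SDF-1α 8 h arrays, where the bound was 1.03-fold. For miR-20a the change with SDF-1α was lower than with POL6326 by 1.15 on the log2 scale (SE 0.31), which did not pass (adjusted p = 0.0771), and for let-7d by 1.73 (SE 0.64, adjusted p = 0.249).

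**Figure D5:**
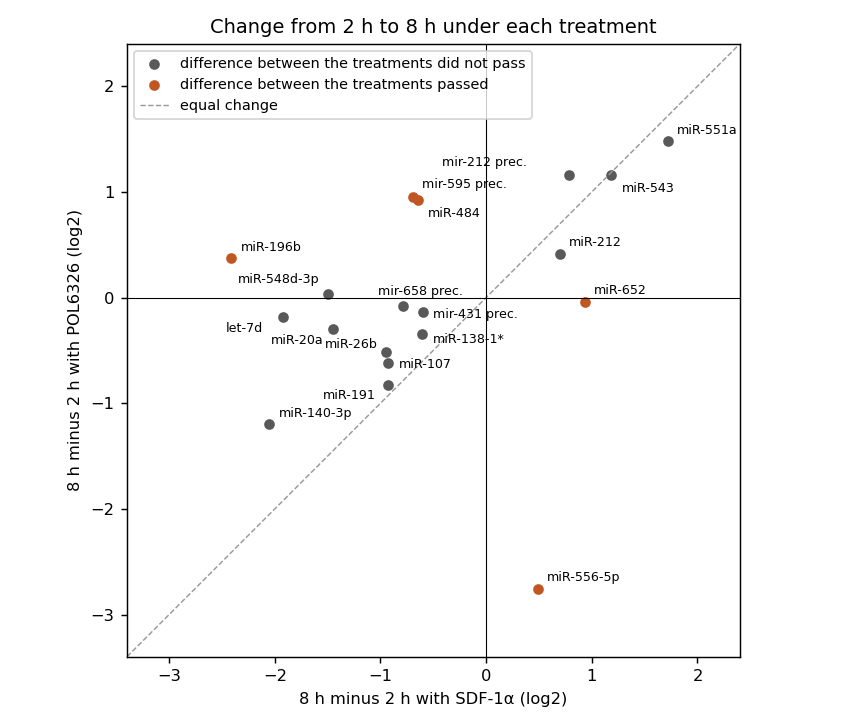
Log2 change from 2 h to 8 h with SDF-1α (horizontal) and with POL6326 (vertical) for the 16 probes past the threshold with SDF-1α and the probes with the smallest p for the difference between the treatments; orange points passed an adjusted p of 0.05 for that difference, and the dashed line marks equal change. miR-551a, miR-543 and miR-191 lie near the line, whereas miR-484 and the mir-595 precursor, above the floor throughout, lie far from it. The places of miR-196b, miR-652, miR-548d-3p and miR-556-5p depend on where the floor lies, since groups of theirs are at it.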

How the data were processed

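Per the labels, cDNA was made from total RNA with a biotinylated primer with a random end and hybridised to a chip. Values deposited by the authors are log2 signals; the scanning, background correction and scaling behind them are not given in the sources used, and all 27 columns share 1 maximum. The number of columns without a sample was 0. Values were used as deposited. A floor is an array's most frequent value (tolerance 1e-04), and where a group lay wholly at it the fold is a bound taken from that group's mean detection limit. Precision is limited by how many arrays there were and by how many probes rose above the floor (317 to 489 on these 6 arrays).

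A model with 1 mean per group was fitted over the 27 arrays (limma 3.58.1, R 4.3.3; moderated by empirical Bayes with prior degrees of freedom of 0.90). P-values are two-sided, adjusted by Benjamini-Hochberg over 774 probes in each comparison, with the threshold at 0.05. Errors are SE unless SD is stated. Scripts were tested on simulated data. Of 774 probes 637 were mature, 137 precursor and 38 marked Plus/Minus.

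Named probes were those past the threshold (up to 12 each way), the 8 smallest p each way among probes above the floor on all 6 arrays, those at the floor at 1 time and above it at the other, the 5 smallest p for the difference between treatments, let-7a, and up to 3 members of each list; seed relatives were added. The comparison, rule and lists (by miRNA name: let-7, miR-17 and paralogue clusters, miR-15 and miR-16, miR-29, miR-30, miR-34, miR-181, HOX-embedded, inflammatory, miR-125 and miR-99/100, miR-23, miR-24 and miR-27, miR-221 and miR-222, miR-26, miR-103, miR-107 and miR-128, miR-130, miR-301 and miR-454, DLK1-DIO3, C19MC) were chosen with earlier results of these data known. Alternatives were centring, quantile normalization, filters on dim probes, floor and detection-limit rules, fewer groups, a replicate block, a trended robust prior, averaging probes of 1 miRNA, a covariate for how many probes were above the floor, a size limit and leaving out each array.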

Additional observations from a re-analysis of the deposited data

Results flagged for a closer look

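For 5 probes the change from 2 h to 8 h differed between SDF-1α and POL6326 with the smallest p among 12 that passed the test of that difference (limma interaction, SDF-1α change minus POL6326 change). miR-196b differed by -2.79 (SE 0.45, adjusted p = 0.00355), with a change of -2.41 under SDF-1α and 0.38 under POL6326, where 5 of 6 arrays were at the floor. miR-652 had a fitted difference of 0.97 (SE 0.17, adjusted p = 0.00355), but 3 of its 4 groups were at the floor on every array, so this size is set by the floor: the rise with SDF-1α is bounded at 1.03-fold, and with 1 common detection limit it was 0.06 (adjusted p = 0.650). The mir-595 precursor, above the floor on all 12 arrays, differed by -1.65 (adjusted p = 0.00355, SE 0.29): it had a change of -0.70 with SDF-1α (adjusted p = 0.0902) and rose by 0.95 with POL6326 (adjusted p = 0.00741). miR-484, a bright probe also above the floor throughout, differed by -1.56 (SE 0.27, adjusted p = 0.00355), with -0.64 under SDF-1α (adjusted p = 0.0976) and a rise of 0.92 under POL6326 (adjusted p = 0.00741). The POL6326 2 h means of mir-595 and miR-484, 10.28 and 10.83, lay below their control means, 10.55 and 12.02. Their POL6326 8 h means were 11.23 and 11.75. miR-556-5p differed by 3.24 (adjusted p = 0.00754, SE 0.62): with SDF-1α it was at the floor at 2 h and had a change of 0.49, while with POL6326 it went from 7.06 ± 0.66 (SD, n = 3) at 2 h to the floor at 8 h.

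The other 7 probes past that test had differences from -5.16 to 3.67 (adjusted p = 0.00935 to 0.0395). Among all 12, 9 passed for the change with POL6326 and 2 for that with SDF-1α, beside 4.26% and 2.07% of all probes. The changes had opposite signs under the treatments for 11. The test picks probes whose changes differ, which favours opposite signs, so this is not a further result. Some signs are of values at the floor, as for miR-652 with POL6326 (-0.04). Of the 12, 5 stayed above the floor throughout; 6 had no SDF-1α 2 h array above it, and 4 of these 6 had every POL6326 2 h array above it.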

How the results depend on the processing

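Of 16 probes past the threshold between 2 h and 8 h, the count was 30 with 1 common detection limit (15 of the 16 among them), 2 with only the groups compared in the fit, and 12 to 32 when 1 array was left out. The other settings gave 12 to 20. For the difference between the treatments, 12 probes became 6 with quantile normalization, 7 without probes at the floor on most arrays, 5 among probes never at the floor in the 6 SDF-1α arrays, and 7 to 20 when 1 array was left out (7 without array 3 of SDF-1α 2 h, POL6326 2 h or POL6326 8 h, and 20 without SDF-1α 8 h array 1).

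The replicate numbers of the 2 h and 8 h arrays did not pair them: deviations of same-numbered arrays correlated at 0.006, 0.005 and -0.038 over all probes. With the replicate block 17 probes passed, 15 of them among the 16, and miR-212 did not (adjusted p = 0.0577); for the difference between treatments 13 passed.

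Among the single probes named, the sign turned in 7 cases, none of them past the threshold: mir-181d precursor when centred (0.050), miR-24 and miR-34b with probes of 1 miRNA averaged (0.20 and 0.16), miR-221 and miR-526b* without SDF-1α 8 h array 3 (leave-one-out range -1.40 to 0.15 and -0.045 to 0.87), miR-26a-2* without 2 h array 3 (-0.37 to 0.033) and miR-30e* without 8 h array 2 (-0.033 to 0.25). The causes were not tested. miR-196b passed in 16 of 16 settings, and miR-20a, miR-140-3p and miR-548d-3p were lost only when the groups compared were fitted alone. Probes near the floor have only bounds, and the 2 h detection limits (5.12 to 5.44) hide fainter signals.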

Other observations

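The 10 control probes, mostly named for transfer RNAs, were not part of the test. Between 2 h and 8 h of SDF-1α 5 were lower and 5 higher, with differences from -1.32 to 0.67. The GAPDH control probe read 9.85 ± 0.36 (SD, n = 3) at 2 h and 8.53 ± 1.22 (SD, n = 3) at 8 h, with overlapping arrays, and HUMTRMI-No2 was the 1 control probe whose arrays did not overlap (-0.97).

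Among the myeloid markers miR-142-5p read 8.59 ± 0.07 (SD, n = 3) at 2 h and 6.98 ± 1.46 (SD, n = 3) at 8 h, a log2 difference of -1.61 that did not pass (SE 0.65, adjusted p = 0.261), and miR-223 differed by -0.40 (SE 0.21, adjusted p = 0.412).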
